A study of Mus musculus with 7 samples.

Results

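The dystrophin-glycoprotein complex is described here through 8 genes of mouse heart ventricle: Dmd (dystrophin), Utrn (utrophin), the sarcoglycans Sgca, Sgcb and Sgcd, Dag1 (dystroglycan), Dtna (alpha-dystrobrevin) and Sspn (sarcospan). They were found by symbol among the 23847 gene rows of the deposited table, where each has 1 row. RNA came from ventricular lysates of male mice aged 12 weeks, whose strain is not given in the sources used here. At 8 weeks, 1 group had been banded (TAB, 3 libraries), meaning that a suture tied around the aorta narrowed it and raised the pressure load on the heart. The other group (Sham, 4 libraries) went through anaesthesia and exposure of the aorta without the suture being tied. Values are FPKM, fragments scaled for transcript length and sequencing depth, and the table has 1 value per gene, so protein isoforms of Dmd or Dtna made from different transcripts were not separated. Estimated depth was 10.8 to 12.2 M (mega) fragments per library, and the FPKM of a library summed to 510016 to 535455. Whether every library had its own animal is not stated in the labels, and p-values cover no more than the variation among the 7 libraries.

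In muscle the complex ties the actin cytoskeleton under the plasma membrane to the extracellular matrix. Dystrophin binds actin inside the cell and the transmembrane beta subunit of dystroglycan, whose partner alpha-dystroglycan binds laminin outside through sugar chains added in the secretory pathway. The sarcoglycans and sarcospan form a subcomplex beside dystroglycan, while dystrobrevin and the syntrophins dock signalling proteins to the inner face. Loss of dystrophin or of a sarcoglycan makes the membrane of contracting muscle cells fragile and can cause muscular dystrophy and cardiomyopathy.

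Promoter sequences are shown for 3 members to which the results below return: Dag1, the member called lower, Dmd, the member with the highest fold change, and Sgca, the other member whose groups did not overlap. They are the 200 bases before the gene start given in the table, from RefSeq sequence of GRCm38.p6. A window at that start was held for 4 of the 8 members, these and Utrn. Capitals mark matches to the E-box CANNTG, a motif of muscle and other basic helix-loop-helix factors, and to the CArG box bound by serum response factor. Each pattern reads the same on both strands, and in these windows the motifs do not overlap each other.
Dag1 promoter, chr9:108263959-108264158, minus strand: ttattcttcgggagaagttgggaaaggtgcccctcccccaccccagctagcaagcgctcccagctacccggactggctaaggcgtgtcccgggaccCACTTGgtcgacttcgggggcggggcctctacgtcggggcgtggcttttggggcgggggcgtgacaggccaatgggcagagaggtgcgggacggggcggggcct
Dmd promoter, chrX:82948670-82948869, plus strand: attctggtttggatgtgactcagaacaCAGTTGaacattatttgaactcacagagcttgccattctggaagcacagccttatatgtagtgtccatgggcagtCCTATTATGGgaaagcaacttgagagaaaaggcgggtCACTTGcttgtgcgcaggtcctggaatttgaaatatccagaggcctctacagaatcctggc
Sgca promoter, chr11:94976328-94976527, minus strand: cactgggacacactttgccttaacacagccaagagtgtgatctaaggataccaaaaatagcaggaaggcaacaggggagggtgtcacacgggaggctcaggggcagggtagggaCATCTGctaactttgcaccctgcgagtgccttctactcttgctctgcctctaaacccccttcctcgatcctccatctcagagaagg
The Dag1 window held 16 CG pairs and 1 E-box, the Sgca window 3 CG pairs and 1 E-box, and the Dmd window 2 CG pairs and 2 E-boxes. An E-box was present in 58.2% of 32851 promoter windows of the same length, and the median window held 5 CG pairs. The Dmd window was the only one of the 3 with a CArG match, which 1.18% of all windows had. These matches describe the letters only, and no binding was measured.

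Fold changes of the complex between banded and sham-operated ventricles lay between -0.17 and 0.20 on the log2 scale. Of the 8 members, all of which passed the filter on low values, 1 was lower in TAB (Dag1), 0 were higher and 7 were not called (limma, adjusted p under 0.05, Benjamini-Hochberg over all tested genes). Over all 11601 tested genes the same rule called 20.3%, with 13.3% higher and 7.05% lower. The groups were apart, with no overlap, in 2 members, Dag1 and Sgca, beside 31.1% of all tested genes. With 8 members both counts are near these background shares and are not a result about the complex, and a gene that was not called may still differ within its interval. The median log2 fold change of the members was -0.05, and that of all tested genes was 0.05. Fold changes are of FPKM + 1, TAB minus Sham. In bulk tissue, fewer cells of a type and less RNA per cell cannot be told apart.

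**Figure D1:**
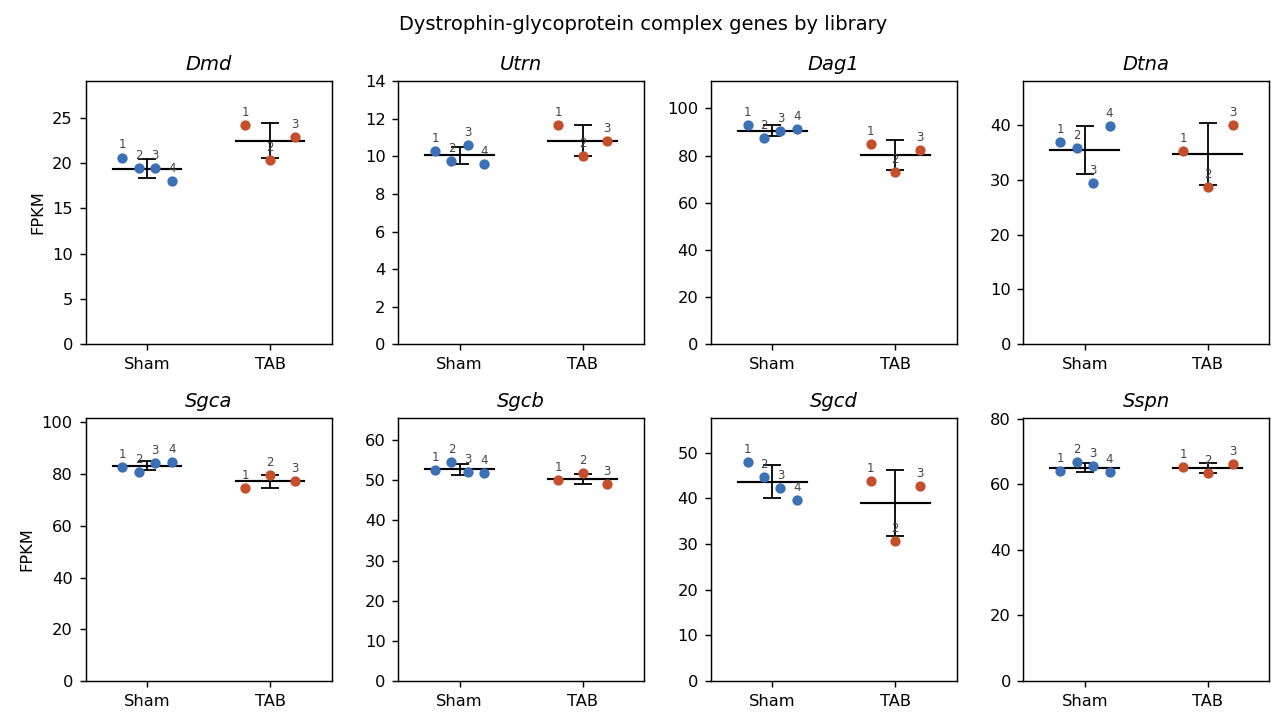
FPKM of the 8 members in each library, Sham in blue and TAB in red, with the replicate number above each point, the mean as a line and the SD as an error bar. Dag1 and Sgca are the genes without overlap between the groups, and TAB 2 is the lowest TAB library in 6 of the 8 panels.

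Levels per transcript length ran from Dag1 to Utrn. Over the 7 libraries mean FPKM was 86.1 for Dag1, 80.7 for Sgca, 65.1 for Sspn, 51.7 for Sgcb, 41.7 for Sgcd, 35.1 for Dtna, 20.7 for Dmd and 10.4 for Utrn. Each gene lay above the next in all 7 libraries at 5 of the 7 steps of this order. The exceptions were Dag1 over Sgca and Sgcd over Dtna, which held in 6 libraries each. Utrn, the least abundant, ranked 4872 among the 11601 tested genes and Dag1 ranked 753.

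Dag1, the gene of both dystroglycan subunits (chr9:108204861-108263958, mm10), fell in TAB. In FPKM it was 93.0, 87.4, 90.6 and 91.2 in Sham 1 to 4, against 85.1, 73.2 and 82.5 in TAB 1 to 3. Every TAB library lay below every Sham library, and TAB 2 was the lowest of all. The means were 90.6 ± 2.35 (SD, n = 4) and 80.3 ± 6.23 (SD, n = 3), a log2 fold change of -0.17 ± 0.05 (SE; limma adjusted p = 0.0441, 95% interval from -0.29 to -0.05). The call was close to the threshold and held in 6 of 16 alternatives. It was lost without a filter, under eBayes without trend and robust (limma adjusted p = 0.08 and 0.0936), and when Sham 1, Sham 2, Sham 3, Sham 4, TAB 2 or TAB 3 was left out (limma adjusted p from 0.0522 to 0.129). It was also lost with the replicate block and without both Sham 2 and TAB 3 (limma adjusted p = 0.0528 and 0.0781), and without TAB 2 the log2 fold change was -0.11.

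Dmd, which encodes the rod-shaped linker between actin and dystroglycan (chrX:82948870-85205050), had a higher mean in TAB and just missed the threshold. It was 20.6, 19.4, 19.5 and 18.0 FPKM in Sham 1 to 4 and 24.2, 20.4 and 22.9 FPKM in TAB 1 to 3. TAB 1 and TAB 3 lay above all Sham libraries, and TAB 2 lay below Sham 1. The log2 fold change was 0.20 ± 0.07 (SE; limma adjusted p = 0.0579, 95% interval from 0.05 to 0.35). Without TAB 2 it was 0.27 and past the threshold (limma adjusted p = 0.0203), and over the other alternatives tried the adjusted p stayed above 0.05.

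Utrn (chr10:12382188-12861735) encodes utrophin, the autosomal homolog that can take the place of dystrophin at the membrane and is raised in dystrophin-deficient mouse muscle. It was 10.3, 9.77, 10.6 and 9.59 FPKM in Sham 1 to 4 and 11.7, 10.0 and 10.8 FPKM in TAB 1 to 3. The groups overlapped, with TAB 2 inside the Sham range. The log2 fold change was 0.10 ± 0.07 (SE; limma adjusted p = 0.327), and its 95% interval ran from -0.05 to 0.24.

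The ratio of Utrn to Dmd within a library does not depend on scaling between libraries. It was 0.499, 0.502, 0.544 and 0.532 in Sham 1 to 4, against 0.482, 0.492 and 0.473 in TAB 1 to 3. All TAB ratios lay below all Sham ratios, by a small margin. The log2 ratio differed by -0.10 between the group means (exact permutation test over 35 assignments, two-sided, p = 0.0857, where the smallest possible p is 0.0286).

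The ratio of Dag1 to Dmd set the falling gene against the one with the highest fold change of the members, a pair chosen after its values were seen and therefore given without a test. It was 4.51, 4.49, 4.66 and 5.06 in Sham 1 to 4, against 3.51, 3.59 and 3.61 in TAB 1 to 3. TAB 2, which was low for each gene alone, stood with the other TAB libraries in this ratio. The log2 difference was -0.39, and it lay between -0.41 and -0.35 when any single library was left out.

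**Figure D2:**
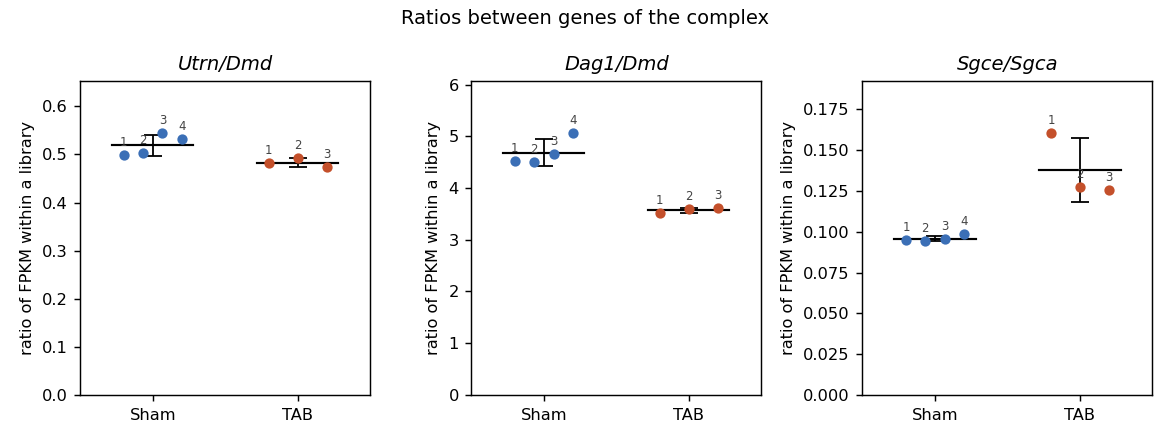
Ratios of FPKM between genes of the complex within each library (Utrn over Dmd, Dag1 over Dmd, Sgce over Sgca), Sham in blue and TAB in red, with replicate numbers, means and SD. The Dag1 to Dmd ratio is 4.68 ± 0.262 in Sham and 3.57 ± 0.0509 in TAB, and the Sgce to Sgca ratio is 0.0958 ± 0.0018 in Sham and 0.138 ± 0.0195 in TAB.

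The sarcoglycans are single-pass membrane proteins that stabilise dystroglycan in the complex. Sgca, the alpha subunit of striated muscle (chr11:94962777-94976327), was 82.9, 81.0, 84.4 and 84.9 FPKM in Sham 1 to 4 and 74.6, 79.7 and 77.4 FPKM in TAB 1 to 3. The groups did not overlap, with the highest TAB library just under the lowest Sham library. The log2 fold change of -0.11 ± 0.04 (SE) was not called (limma adjusted p = 0.0945, 95% interval from -0.20 to -0.02). It was called under median-of-ratios rescaling (-0.16, limma adjusted p = 0.0343) and under quantile normalization (-0.15, limma adjusted p = 0.0292).

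Sgcb, the beta subunit (chr5:73632749-73647731), was 52.5, 54.7, 52.0 and 51.7 FPKM in Sham 1 to 4 and 50.1, 51.8 and 49.1 FPKM in TAB 1 to 3. The groups overlapped through TAB 2, and the log2 fold change was -0.07 ± 0.04 (SE; limma adjusted p = 0.323). Sgcd, the delta subunit (chr11:46978783-47379302), was 48.0, 44.7, 42.2 and 39.7 FPKM in Sham 1 to 4 and 43.7, 30.7 and 42.6 FPKM in TAB 1 to 3. TAB 1 and TAB 3 fell inside the Sham range and TAB 2 far below it. The log2 fold change of Sgcd was -0.17 ± 0.12 (SE; limma adjusted p = 0.363) with a wide 95% interval from -0.45 to 0.10, and without TAB 2 it was -0.01.

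Sspn encodes the tetraspan protein that associates with the sarcoglycans (chr6:145934147-145965225). It was the steadiest member, at 64.0, 67.0, 65.7 and 63.9 FPKM in Sham 1 to 4 and 65.2, 63.4 and 66.3 FPKM in TAB 1 to 3. The groups overlapped, and the 95% interval of the log2 fold change ran from -0.09 to 0.09 (limma adjusted p = 0.958). Dtna, whose product binds dystrophin and the syntrophins, varied most within groups beside Sgcd. It was 36.8, 35.7, 29.4 and 39.8 FPKM in Sham 1 to 4 and 35.2, 28.7 and 40.0 FPKM in TAB 1 to 3. Sham 3 and TAB 2 were low, TAB 3 was high, and the log2 fold change was -0.04 with a 95% interval from -0.32 to 0.25 (limma adjusted p = 0.871).

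TAB 2 stood apart in several members. It was the lowest of the TAB libraries in 6 of 8 members (Dmd, Utrn, Sgcd, Dag1, Dtna and Sspn), and in 38.2% of all tested genes. Set against the mean of TAB 1 and TAB 3, TAB 2 differed on the log2 scale by -0.48 for Sgcd and -0.38 for Dtna. The difference was -0.20 for Dmd, -0.19 for Dag1, -0.15 for Utrn and -0.05 for Sspn. For Sgca and Sgcb TAB 2 was the higher, by 0.07 and 0.06. The 2 members that were not lowest in TAB 2 have the shortest transcripts of the 8, with a longest annotated form (GENCODE M21) of 1.72 kb for Sgca and 3.79 kb for Sgcb, and those of Dmd and Utrn reach 14.9 and 12.4 kb. Over all tested genes the median TAB 2 difference was 0.03 for transcripts under 2 kb and -0.06 for those over 9 kb, and TAB 2 was lowest in 28.6% and 51.3% of these genes. Sspn and Sgcd, at -0.05 and -0.48, have transcripts of similar length, 4.51 and 4.45 kb. The part of transcript length in the members' values was not tested. The median log2 fold change between TAB and Sham was 0.08 for genes under 2 kb and -0.0012 for those over 9 kb.

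**Figure D3:**
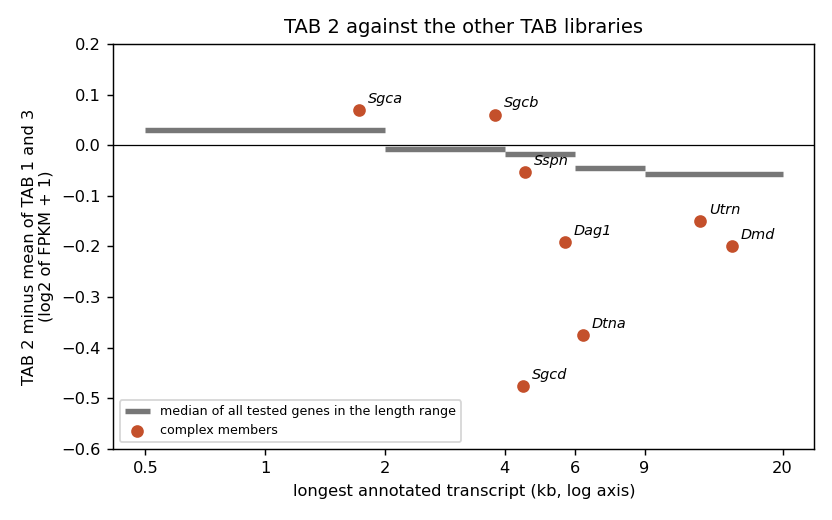
Difference between TAB 2 and the mean of TAB 1 and TAB 3 (log2 of FPKM + 1) against the longest annotated transcript (kb, log axis). Red points are the 8 members and grey lines the medians of all tested genes in 5 length ranges. Sgcd and Dtna lie well below the grey line of their range, which is at -0.02 for 4 to 6 kb and -0.05 for 6 to 9 kb.

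Around the 8 members, 39 further genes of the pathway were listed by role, of which 33 passed the filter. In TAB 5 of these rose, 4 fell and 24 were not called, with a median log2 fold change of 0.07. Over all 11601 tested genes the same rule called 13.3% higher and 7.05% lower, with a median of 0.05. The pathway counts, and those by role below, were not tested against these shares. They are not a result about the pathway. Under median-of-ratios rescaling 5 were higher and 7 lower, and without TAB 1 the called genes came to 3, all higher.

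Among the other subunits and paralogs, 1 of 2 tested genes rose. Sgce, the epsilon paralog of alpha-sarcoglycan that is expressed widely outside striated muscle, was 7.88, 7.64, 8.05 and 8.35 FPKM in Sham 1 to 4 and 12.0, 10.1 and 9.73 FPKM in TAB 1 to 3. All TAB libraries lay above all Sham libraries. Its log2 fold change was 0.37 ± 0.07 (SE; limma adjusted p = 0.00647), and the call held in all 16 alternatives. The ratio of Sgce to Sgca, a pair chosen after its values were seen and not tested, was 0.0951, 0.0943, 0.0955 and 0.0984 in Sham 1 to 4, against 0.160, 0.127 and 0.126 in TAB 1 to 3. Sgcz and Drp2 stayed under 0.15 FPKM in every library and were not tested.

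Among syntrophins and dystrobrevins, 1 of 3 tested genes rose. Sntb1, the beta-1 syntrophin, an adaptor that binds dystrophin and dystrobrevin, was 1.21, 1.61, 1.22 and 0.988 FPKM in Sham 1 to 4 and 3.21, 2.12 and 2.26 FPKM in TAB 1 to 3. All TAB libraries lay above all Sham libraries. The ratio of group means was 2.01, and the log2 fold change of FPKM + 1 was 0.64 ± 0.13 (SE; limma adjusted p = 0.00559). At an estimated 58.3 to 182 fragments per library it was the least deeply measured of the called genes, and its call held in the 15 alternatives in which it could be tested. Sntb2 had a log2 fold change of 0.04 (limma adjusted p = 0.752), and Sntg1, Sntg2 and Dtnb did not pass the filter.

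Of 5 tested partners on the inner face, 2 rose and 2 fell. Cav3, the muscle caveolin that binds beta-dystroglycan, was 49.4, 58.4, 50.7 and 53.8 FPKM in Sham 1 to 4 and 69.1, 60.7 and 64.9 FPKM in TAB 1 to 3 (log2 fold change 0.29 ± 0.06 SE, limma adjusted p = 0.0109). Actg1, the cytoplasmic gamma-actin to which dystrophin binds, went from 132 ± 7.07 (SD, n = 4) to 165 ± 12.0 FPKM (SD, n = 3; limma adjusted p = 0.00414), a value that is less certain because near-identical actin copies can share reads. The groups of both genes did not overlap. Cav3 lost its call without TAB 1 (limma adjusted p = 0.0544).

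The ankyrins Ank2 and Ank3, which anchor dystrophin and dystroglycan at the membrane, moved the other way. Ank2 was 25.8, 26.1, 25.6 and 25.9 FPKM in Sham 1 to 4 and 22.1, 24.1 and 20.9 FPKM in TAB 1 to 3 (log2 fold change -0.20 ± 0.06 SE, limma adjusted p = 0.025). Ank3 was 9.87, 10.8, 10.1 and 11.1 FPKM in Sham 1 to 4 and 8.78, 8.72 and 9.14 FPKM in TAB 1 to 3 (log2 fold change -0.21 ± 0.06 SE, limma adjusted p = 0.0302). In neither gene did the groups overlap. The call of Ank2 was lost without Sham 1, Sham 2, TAB 1 or TAB 3 (limma adjusted p from 0.0505 to 0.102), and Ank3 without Sham 2, Sham 4, TAB 1, TAB 2 or TAB 3 (from 0.0559 to 0.0934). Both calls were also lost with the replicate block (limma adjusted p = 0.0641 for Ank2 and 0.111 for Ank3) and without both Sham 2 and TAB 3 (0.174 and 0.112). Plec, the cytoskeletal linker plectin, had a log2 fold change of 0.10 (limma adjusted p = 0.266).

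Of 6 matrix ligands of dystroglycan, 1 rose. Lamc1, the gamma-1 chain found in most laminins, was 30.5, 30.9, 29.3 and 27.9 FPKM in Sham 1 to 4 and 39.1, 33.3 and 35.4 FPKM in TAB 1 to 3. The groups were apart, with a log2 fold change of 0.27 ± 0.06 (SE; limma adjusted p = 0.0127), a call that was lost without TAB 1 (limma adjusted p = 0.0586). Lama2, Lamb1, Agrn and Hspg2 had log2 fold changes from 0.15 to 0.23 that were not called (limma adjusted p from 0.0607 to 0.207), and Lamb2 had -0.05. The median of the 6 was 0.19.

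Of 17 genes that build the laminin-binding sugar of alpha-dystroglycan, 0 were higher and 2 lower, with a median log2 fold change of 0.03. Pomt1, which with Pomt2 attaches the first mannose, was 5.27, 5.66, 5.11 and 5.81 FPKM in Sham 1 to 4 and 4.34, 4.70 and 3.64 FPKM in TAB 1 to 3 (log2 fold change -0.31 ± 0.08 SE, limma adjusted p = 0.0239). Its partner Pomt2 had a log2 fold change of 0.03 (limma adjusted p = 0.846). The TAB libraries of Pomt1 lay below the Sham libraries. The call of Pomt1 was lost without Sham 2, Sham 4, TAB 1 or TAB 3 (limma adjusted p from 0.056 to 0.0904), and without both Sham 2 and TAB 3 (0.164).

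**Figure D4:**
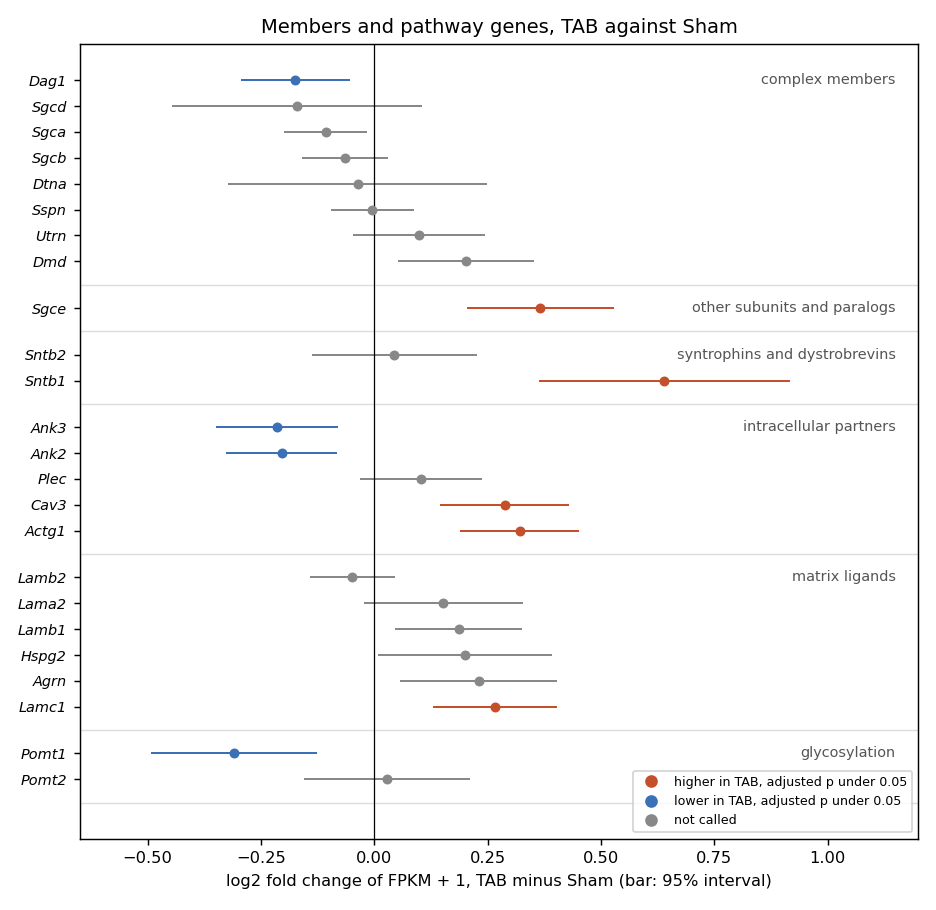
Log2 fold change of FPKM + 1 (TAB minus Sham) with its 95% interval for the 8 members and the tested pathway genes named in the text, grouped by role. Red marks genes higher and blue genes lower in TAB at a limma adjusted p under 0.05, and grey marks genes not called. Of the members Dag1 is blue, and Sntb1 has the highest value shown, at 0.64.

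By the correlation of log2(FPKM + 1) over the 7 libraries, the genes most like Dag1 among 7201 with a mean of at least 5 FPKM included Serinc3 (Pearson r = 0.992) and Gtpbp10 (r = 0.987), the highest of all. The 7 points include the difference between Sham and TAB, and 65 of the ranked genes had an r over 0.9, so this likeness is a description.

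Marker lists of cell types were set beside these results. They do not tell a change in cell numbers from a change in RNA per cell. For comparison, the same rule called 13.3% of all 11601 tested genes higher and 7.05% lower. The groups did not overlap in 31.1% of them. The marker counts below were not tested against these shares. Of 7 cardiomyocyte markers 4 were lower in TAB (Myh6, Tnnt2, Tnni3 and Ryr2, each without overlap) and 0 higher. Actc1, Myl3 and Myl2 went the other way, with log2 fold changes of 0.14, 0.13 and 0.04. They were not called (limma adjusted p from 0.107 to 0.672). Summed levels of the 7 were 58544 to 64227 FPKM in Sham and 57571 to 64532 FPKM in TAB. The largest parts of the sum were Myl2 and Actc1, neither of them called, with means of 23354 and 10429.5 FPKM. Ryr2 had a mean of 148 FPKM. Of 6 fibroblast markers 5 were higher, with sums of 362 to 414 FPKM in Sham and 462 to 601 FPKM in TAB. Pdgfra, with a log2 fold change of 0.13, was not called. Of the smooth muscle and pericyte list 3 of 6 were higher (226 to 234 against 251 to 285 FPKM). The endothelial list had 3 of 5 higher (178 to 201 against 208 to 242 FPKM). Kdr (log2 fold change -0.18) and Pecam1 (0.17) were not called. In the macrophage list 2 of 5 were higher (146 to 163 against 160 to 209 FPKM). Atrial markers were called in 0 of 3. Their sums varied within groups, from 38.7 to 282 FPKM in Sham and from 31.9 to 302 FPKM in TAB. The highest sums were in Sham 2 and TAB 3, the libraries left out together in 1 alternative. In TAB 1 to 3 the fibroblast sums were 600.5, 462.2 and 585.3 FPKM. Sntb1 and Lamc1 had the same order of TAB libraries. This order was not particular to them or to the fibroblast list. The macrophage sums (209, 160.2 and 193.1 FPKM) had it too. So did Cav3, Dmd, Utrn, Sgcd and Dag1, the last of which was lower in TAB. Sgce had another order, with TAB 2 above TAB 3. The endothelial sums were 241.6, 234.7 and 208.5 FPKM, in the order of Sgce. So were the smooth muscle and pericyte sums, at 285.5, 276.6 and 250.6 FPKM. TAB 1, the highest of the TAB libraries in Sgce, Sntb1 and Lamc1, was also the highest in the fibroblast, endothelial, smooth muscle and pericyte, and macrophage sums. No marker was at 0 in any library, and the part of these cell types in the values of Sgce, Sntb1, Lamc1, Dag1 or any other gene above was not tested.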

How the data were processed

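PolyA-enriched stranded libraries of 4 Sham and 3 TAB ventricular samples were analysed from 1 table of FPKM values, which the authors deposited with 1 column per library. The submitters' processing notes name TopHat, Cufflinks and the build mm10. Tool versions, settings and whether libraries were scaled to each other were not stated in what was used here. No count model was used, since FPKM are not counts. Depth was estimated from single-transcript genes of 3 to 6 kb, as the number of fragments at which most low values were within 5% of 1 to 4 whole fragments. That held for 56.0% to 63.0% of them, at 10.8 to 12.2 M (mega) fragments per library. Dag1, Dmd, Utrn and Sgca would then rest on at least 1350 fragments each. Whole multiples of these depths give similar shares, so they are approximate.

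Values were taken as log2(FPKM + 1). Rows with at least 1 FPKM in at least 3 libraries entered a fit by limma 3.58.1 under R 4.3.3 (trend and robust eBayes, two-sided, Benjamini-Hochberg adjustment, threshold 0.05), without covariates. As a check of the code, the fit was run on simulated data with planted changes larger than those of the members. That run says nothing about changes as small as theirs. Table starts count from 0 (12100 of 21328 genes begin 1 base below RefSeq), and positions are given from 1. Members and lists were chosen with earlier results of these data known. All members are named, with every called pathway gene, further pathway genes added after their values were seen, and the 3 genes most like the called member. A few pathway genes covered by it are not reported here but were kept in every test and count. Alternatives were pseudocounts of 0.1 and 0.5, other filters, median-of-ratios and quantile scaling, plain eBayes, a block for the replicate number, leaving out each library in turn, and leaving out Sham 2 and TAB 3 together. Leaving out libraries from the Sgce to Sgca and Dag1 to Dmd ratios was chosen after seeing the data.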

Additional observations from a re-analysis of the deposited data

How the results depend on the processing

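The number of members called was 1, and 0 without a filter, under eBayes without trend and robust, with the replicate block and without both Sham 2 and TAB 3, and 2 under median-of-ratios and under quantile scaling (Dag1 and Sgca). Leaving out 1 library gave 0 to 1 members called, 3 to 10 pathway genes against 9, and 1440 to 2080 genes overall against 2360. The member called was Dag1, lower, without TAB 1, but Dmd, higher, without TAB 2. Without both Sham 2 and TAB 3, 1353 genes were called. Median-of-ratios rescaling turned the overall split from 1542 higher and 818 lower into 1126 higher and 1190 lower, and quantile normalization into 1045 and 1225. The uncalled log2 fold change of Dtna changed sign with the replicate block (0.0202) and without Sham 4 or TAB 2 (range with 1 library left out -0.144 to 0.0882), and that of Sspn without Sham 2 or TAB 2 (-0.0187 to 0.0133). The log2 difference of the Utrn to Dmd ratio lay between -0.12 and -0.08 with 1 library left out, where no p under 0.05 is possible. The cause of these changes was not tested. Of 128 member values under alternatives 110 kept direction and side of the threshold, and of 142 for the called pathway genes 116 did. The 128 values cover all 8 members, of which 7 were not called in the main fit. Dag1, the called member, kept its call in 6 of 16 alternatives. Same-numbered Sham and TAB libraries had correlated deviations of 0.081, 0.169 and 0.174. Sham 1 to 3, TAB 2 and TAB 3, but not TAB 1, correlated best with their own number. The labels do not call equal numbers pairs, and the main fit did not take them as such, but these values do not exclude it. Under the block 7 pathway genes and 1892 of all tested genes were called, and Dag1 was not (limma adjusted p = 0.0528). Low genes such as Sntb1 are limited by depth.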

Other observations

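Nos1, which encodes the neuronal nitric oxide synthase that syntrophin anchors to the complex in skeletal muscle, was under the filter and entered no test. It was 0.0203, 0.0199, 0.036 and 0.0371 FPKM in Sham 1 to 4 and 0.153, 0.0544 and 0.130 FPKM in TAB 1 to 3, an estimated 2.22 to 17.8 fragments per library. Dtnb, the second dystrobrevin gene, was 0.417 to 0.748 FPKM in Sham and 0.716 to 1.14 FPKM in TAB, an estimated 17.6 to 49.3 fragments, and was not tested either.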
